A study of Homo sapiens with 9 samples.

Results

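The 6 genes described here encode inhibitors of the cyclin-dependent kinases (CDKs). They are CDKN1A, CDKN1B and CDKN1C of the Cip/Kip family, and CDKN2B, CDKN2C and CDKN2D of the INK4 family. They were chosen by name, as members of these families, from 23284 gene symbols, with earlier results of these data known. The set does not hold the whole INK4 family. All 6 genes were measured above 0 in every library. RNA was sequenced as paired ends from 9 cultures of HT-29, an established human colon cancer cell line. The cultures received either the DMSO vehicle alone (0 µM, the control group) or 5-aza-deoxycytidine (5-Aza) at 5 µM or 10 µM, for 5 days. Each group held 3 cultures, which the labels name as biological replicates. All cultures were of this single line.

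CDKs drive a cell from one phase of its division cycle to the next once a cyclin has bound to them. INK4 proteins bind CDK4 and CDK6 and keep the D-type cyclins away, whereas Cip/Kip proteins bind whole cyclin and CDK complexes, including those of CDK2 with cyclins E and A. Blocking these kinases keeps the RB protein in the form that holds back E2F factors, and so holds cells before DNA replication. CDKN1A is a textbook gene of the DNA damage response, while CDKN2B is known for its induction by TGF-beta. 5-Aza is a cytidine analog that is built into DNA, traps DNA methyltransferases and lowers the methylation of CpG sites, and promoter methylation of CDKN2B and CDKN1C is known from several cancers.

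Because 5-Aza acts at CpG sites, the sequence just before the start of each gene is shown, to let a reader see how many such sites each promoter holds. Methylation itself was not measured. The sequences came from RefSeq (GRCh38.p14), cover the 250 bases before the annotated start, run 5′ to 3′ along the gene's own strand and carry each CpG in capitals. The promoter table matched 5 of the 6 genes by symbol, all but CDKN1C.
CDKN1A, chr6:36678464-36678713, plus strand: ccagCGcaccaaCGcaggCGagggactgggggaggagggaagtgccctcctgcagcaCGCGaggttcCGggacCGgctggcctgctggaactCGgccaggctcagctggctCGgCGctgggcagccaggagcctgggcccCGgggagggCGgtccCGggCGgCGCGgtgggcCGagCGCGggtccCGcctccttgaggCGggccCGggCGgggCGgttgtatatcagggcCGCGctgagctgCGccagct
CDKN1B, chr12:12717118-12717367, plus strand: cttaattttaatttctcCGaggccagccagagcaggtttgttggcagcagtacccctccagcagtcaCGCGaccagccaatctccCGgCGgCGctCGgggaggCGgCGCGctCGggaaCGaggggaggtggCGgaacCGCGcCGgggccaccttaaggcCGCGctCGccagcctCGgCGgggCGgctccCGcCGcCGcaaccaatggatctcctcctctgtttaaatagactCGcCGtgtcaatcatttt
CDKN2B, chr9:22009306-22009555, minus strand: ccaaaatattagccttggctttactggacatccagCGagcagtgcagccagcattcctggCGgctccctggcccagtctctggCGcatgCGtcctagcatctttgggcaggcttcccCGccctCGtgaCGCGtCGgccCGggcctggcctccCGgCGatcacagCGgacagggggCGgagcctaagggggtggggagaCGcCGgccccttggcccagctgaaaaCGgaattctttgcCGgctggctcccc
CDKN2C, chr1:50968456-50968705, plus strand: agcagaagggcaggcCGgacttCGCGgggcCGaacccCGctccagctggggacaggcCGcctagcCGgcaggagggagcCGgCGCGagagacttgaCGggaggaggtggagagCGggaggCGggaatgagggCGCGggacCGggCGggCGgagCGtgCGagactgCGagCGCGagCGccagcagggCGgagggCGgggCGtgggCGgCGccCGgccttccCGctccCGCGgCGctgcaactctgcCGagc
CDKN2D, chr19:10568980-10569229, minus strand: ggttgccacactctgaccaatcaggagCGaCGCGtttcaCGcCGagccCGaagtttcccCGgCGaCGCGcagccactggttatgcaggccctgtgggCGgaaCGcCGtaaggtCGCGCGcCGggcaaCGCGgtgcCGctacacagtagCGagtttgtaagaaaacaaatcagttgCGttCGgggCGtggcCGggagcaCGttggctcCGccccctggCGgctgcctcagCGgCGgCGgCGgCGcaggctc

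These promoters held 27 CpG sites in CDKN1A, 27 in CDKN1B, 18 in CDKN2B, 35 in CDKN2C and 33 in CDKN2D, against a median of 11 over 35116 promoters of this length. At least as many sites were found in 17.7% of all promoters for CDKN1A and CDKN1B, 36.8% for CDKN2B, 5.8% for CDKN2C and 8.15% for CDKN2D. CDKN2C has other annotated starts, with 7 and 10 CpG sites before them, and the richest of the starts is printed above. The GC box, written GGGCGG or CCGCCC and searched on both strands, is a motif known to be bound by SP1, a factor that activates CDKN1A. It occurred 4 times before CDKN1A, 5 times before CDKN2C, 2 times before CDKN2B and CDKN2D each and 1 time before CDKN1B, and 42.6% of all promoters held it at least 1 time. A CpG lies inside each of these motifs, so the counts of the motif and of CpG sites overlap.

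The expression unit was FPKM, the number of sequenced fragments relative to transcript length and library depth, as the authors computed it per gene. The values in these tables were far larger than FPKM usually are, with sums of 3.6925e+09 to 5.90812e+09 per library, so levels are best read against each other and against the rest of the library. FPKM accounts for gene length and therefore allows levels of different genes to be compared, as far as the transcript length used for each gene was right. Levels below are FPKM, and log2 differences are differences between group means of log2(FPKM + 1). In bulk RNA, fewer cells that express a gene and less RNA per cell cannot be told apart.

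In control cells CDKN1B, CDKN2B and CDKN1A formed an upper group. The mean FPKM was 202891 ± 21386 (SD, n = 3) for CDKN1B, 173760 ± 9242 for CDKN2B and 163169 ± 7747 for CDKN1A. The replicate ranges of neighbours in this order overlapped. CDKN1B and CDKN1A did not overlap, with a lowest CDKN1B value of 179504 and a highest CDKN1A value of 169468. CDKN2D followed with 49543 ± 10525, CDKN1C with 20472 ± 2970 and CDKN2C with 3339 ± 842, and these steps did not overlap between neighbours. CDKN1A stood between the 66.4 and 67.4 percentile of all symbols above 0 in the control libraries, whereas CDKN2C stood between the 15.5 and 18.9 percentile. At 5 µM the order was CDKN1A, CDKN2B, CDKN1B, CDKN2D, CDKN1C and CDKN2C, with no overlap between neighbours. CDKN1A then reached the 90.5 to 92.1 percentile and CDKN1C, which had been at the 30.7 to 33.5 percentile in control cells, the 57.8 to 60 percentile. At 10 µM the order of the means was the same as at 5 µM, but the ranges of CDKN1A and CDKN2B overlapped, as did those of CDKN2D and CDKN1C. The 3 INK4 genes of the set together made up 35% to 42.9% of the summed FPKM of the 6 genes across the 9 libraries.

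**Figure D1:**
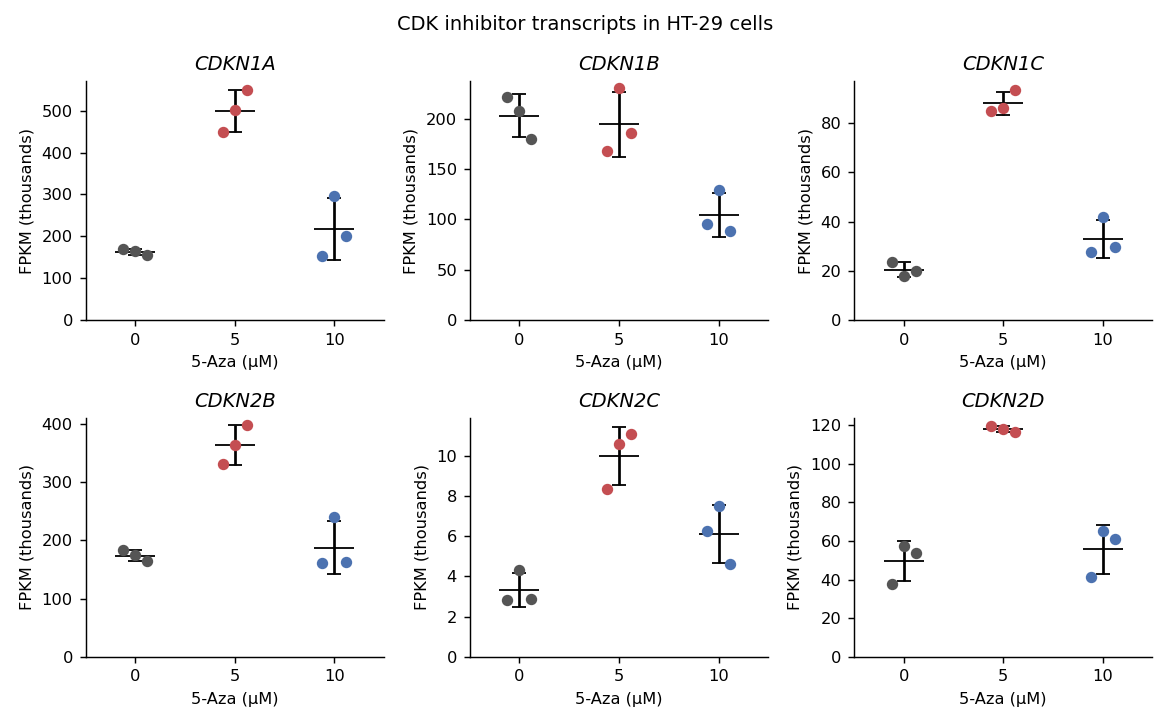
FPKM (vertical axis, from 0, in units of 1000) of the 6 CDK inhibitor genes against the 5-Aza concentration in µM (horizontal axis). Each point is 1 of 3 cultures, placed from left to right as replicates 1 to 3, and the lines give the mean and SD. All genes but CDKN1B were higher at 5 µM than in every control culture, and all 6 were lower at 10 µM than in every culture at 5 µM, with means of 163169, 499708 and 217006 FPKM for CDKN1A.

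The comparison of 5 µM 5-Aza with the vehicle asks what this concentration does to the inhibitor transcripts. CDKN1A, CDKN1C, CDKN2B, CDKN2C and CDKN2D rose, by 2.09-fold to 4.33-fold, and CDKN1B did not pass the test. A gene was called changed when its adjusted p was at most 0.05 and its log2 difference beyond 1, in limma's moderated test with Benjamini-Hochberg adjustment over all genes tested. By this rule 5 of the 6 genes were called higher and 0 lower, beside 14.1% of the 20051 tested genes called higher and 2.17% called lower. The median log2 difference of the 6 genes was 1.44, beside 0.14 over all genes tested.

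CDKN1C, which encodes p57 and lies in an imprinted domain, rose most. Its FPKM was 23687, 17832 and 19895 in control replicates 1 to 3, and 84870, 86078 and 93343 at 5 µM. The groups lay far apart, and the lowest value at 5 µM was above the highest control. The log2 difference was 2.11 ± 0.13 (SE), a 4.33-fold rise (95% interval of the log2 difference 1.80 to 2.43, limma adjusted p = 0.00022).

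CDKN1A encodes p21, the inhibitor that halts the cycle after DNA damage. Its FPKM was 169468, 165521 and 154519 in control cells and 448384, 500969 and 549772 at 5 µM. All treated cultures were higher than all controls, and the controls differed among themselves by little, with a coefficient of variation of 4.75%. The rise was 3.05-fold, with a log2 difference of 1.61 ± 0.09 (95% interval 1.39 to 1.83, limma adjusted p = 0.00019).

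CDKN2C encodes p18, an INK4 inhibitor, and was the lowest of the 6 genes. Its FPKM was 2848, 4311 and 2858 in control cells and 8383, 10582 and 11095 at 5 µM. The groups did not overlap, although the control value of replicate 2 stood above the other controls. The rise was 3.04-fold, with a log2 difference of 1.60 ± 0.28 (95% interval 0.93 to 2.27, limma adjusted p = 0.0055). Few fragments lay behind these values. Estimated from the step sizes of the FPKM values and a transcript of 995 nt, they were 2.95 to 6.74 per control library and 20.9 to 29.6 per library at 5 µM, or 10.0 to 22.9 and 71 to 100.5 with the longest annotated transcript of 2904 nt.

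CDKN2D encodes p19, another INK4 inhibitor. Its FPKM was 37586, 57404 and 53638 in control cells and 119735, 117787 and 116371 at 5 µM. The treated cultures were close together (coefficient of variation 1.43%) and the controls were not (21.2%), with replicate 1 the lowest. The rise was 2.42-fold, with a log2 difference of 1.28 ± 0.16 (95% interval 0.88 to 1.67, limma adjusted p = 0.00177).

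CDKN2B encodes p15. Its FPKM was 182679, 174376 and 164225 in control cells and 329955, 362616 and 397394 at 5 µM. No treated culture came near the control range, yet the rise was only slightly past the fold threshold. It was 2.09-fold, with a log2 difference of 1.06 ± 0.09 (95% interval 0.85 to 1.27, limma adjusted p = 0.000464). Without replicate 3 of the 5 µM group the log2 difference was 0.99 and the call was lost, with an adjusted p of 0.00331.

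CDKN1B encodes p27, an inhibitor known to be set largely by the turnover of its protein. Its FPKM was 221451, 207718 and 179504 in control cells and 167553, 229996 and 185307 at 5 µM. The groups overlapped. The log2 difference was -0.07 ± 0.14, and its 95% interval of -0.41 to 0.27 excluded a 2-fold change in either direction (limma adjusted p = 0.701). When the libraries were scaled to a common sum the sign turned, with a log2 difference of 0.22 and an adjusted p of 0.145.

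For each of the 5 called genes the 5 µM values were all above the control values, which is the most that 3 cultures against 3 can show. The exact two-sided permutation test then gave p = 0.1, the smallest p this design allows, and 29.4% of all tested genes had such a split in the higher direction. CDKN1B gave p = 0.8 in the same exact test.

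**Figure D2:**
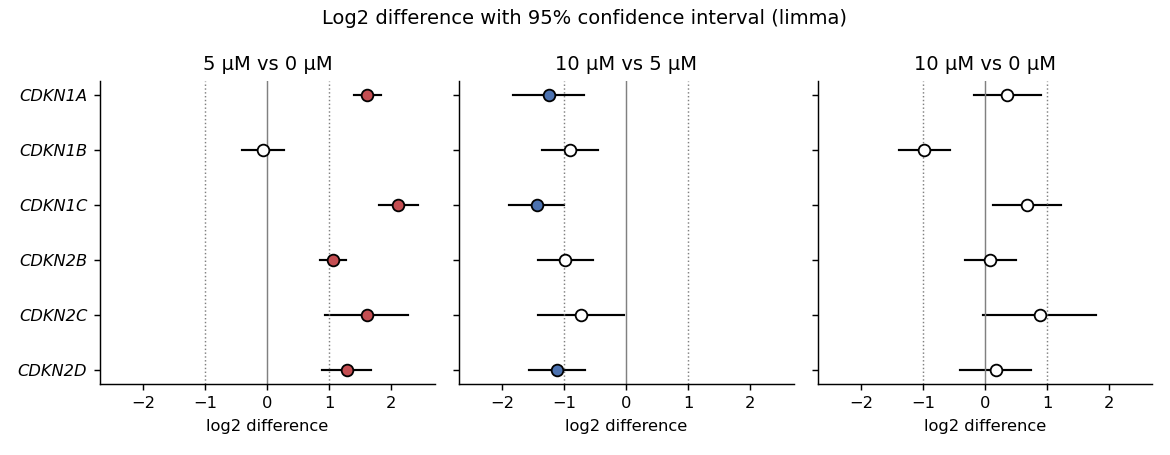
Log2 difference (horizontal axis, log2 of FPKM + 1) of each CDK inhibitor gene in the 3 comparisons, with its 95% confidence interval from limma as a bar. Filled points were called (adjusted p at most 0.05 and a log2 difference beyond 1, the dotted lines), 5 of 6 genes higher at 5 µM than at 0 µM, 3 of 6 lower at 10 µM than at 5 µM, and 0 between 10 µM and 0 µM.

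The comparison of 10 µM with 5 µM asks whether more 5-Aza gives more inhibitor transcript. All 6 genes were lower at the higher concentration, and CDKN1A, CDKN1C and CDKN2D fell by the rule above. These 3 calls compare with 4.82% of 20085 tested genes called lower and 0.129% called higher. At the adjusted p alone, with no threshold on the fold, 5 of the 6 genes were lower, beside 5.85% of all genes. The median log2 difference was -1.04 over the 6 genes and -0.31 over all genes tested. The bulk of the library was also lower at 10 µM, with a median of -0.24 over the 16203 genes above 0 in all 6 libraries, and this shift is taken off below wherever a value is given relative to the median.

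CDKN1C measured 27518, 41764 and 29538 FPKM at 10 µM, all below its values at 5 µM. It fell 2.72-fold, with a log2 difference of -1.44 ± 0.19 (limma adjusted p = 0.00844), or -1.20 relative to the median. CDKN1A measured 153231, 297208 and 200579 FPKM. These cultures spread widely, with a coefficient of variation of 33.8%, and replicate 2 was the highest. The gene fell 2.38-fold, with a log2 difference of -1.25 ± 0.24 (limma adjusted p = 0.0284), or -1.01 relative to the median.

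CDKN2D measured 41203, 65045 and 61024 FPKM at 10 µM, again below every culture at 5 µM. Its log2 difference was -1.11 ± 0.19 (limma adjusted p = 0.0192) and -0.87 relative to the median. With median-of-ratios scaling, which sets that median to zero, the call was lost. CDKN2B measured 160200, 239787 and 162405 FPKM, and its log2 difference of -0.98 ± 0.19 passed the adjusted p of the test (limma, 0.0274) but stayed within 2-fold. CDKN1B measured 95439, 129072 and 87983 FPKM. It too was lower, with a log2 difference of -0.91 ± 0.19 (limma adjusted p = 0.0396), within 2-fold. CDKN2C, at 6255, 7492 and 4631 FPKM, had a log2 difference of -0.73 ± 0.29 that did not pass (limma adjusted p = 0.186, 95% interval -1.42 to -0.03), on an estimated 8.16 to 15.6 fragments per library at 10 µM.

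The 10 µM values of all 6 genes lay below all their 5 µM values, a split that 25.3% of the tested genes showed. The exact permutation p was 0.1 for each gene, the smallest possible. Replicate 2 was the highest of the 10 µM cultures for all 6 genes, and its library also had the largest FPKM sum of that group (5.07766e+09, beside 3.6925e+09 and 4.1974e+09). Without it 5 of the 6 genes were called lower. The calls rested on all 3 cultures at 5 µM. Without its replicate 1 or replicate 3 the number called fell to 0, and without replicate 2 it fell to 1.

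The comparison of 10 µM with the vehicle asks what remained of the change at the higher concentration. By the rule above 0 of the 6 genes were called in limma, beside 4.07% of 18928 tested genes called higher and 3.40% called lower. At an unadjusted p below 0.05, 2 genes passed in limma, CDKN1B and CDKN1C. Such p-values were common over all genes. CDKN1C, at an unadjusted limma p of 0.0223, ranked 4835 by p among the 18928 tested genes. The median log2 difference was 0.26 over the 6 genes, -0.15 over all genes tested and -0.23 over the genes above 0 in all 6 libraries.

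CDKN1B was lower at 10 µM than in control cells, in all cultures. The mean FPKM was 104165 ± 21890 (SD, n = 3) against 202891 ± 21386, with a log2 difference of -0.98 ± 0.18. This passed the adjusted p (limma, 0.017), as did 9.71% of all tested genes in the lower direction, and stayed within 2-fold. It was 1.97-fold lower, or -0.74 relative to the median. Without replicate 3 of the control group, or without replicate 2 of the 10 µM group, the log2 difference was -1.06 or -1.14 and the gene was called lower.

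CDKN1C was higher than in control cells in all cultures, at 32940 ± 7708 against 20472 ± 2970 FPKM, with a log2 difference of 0.67 ± 0.23 that did not pass the adjusted test (limma adjusted p = 0.0873). It was called higher, with a log2 difference of 1.05 (adjusted p = 0.0108), when libraries were scaled to a common sum. CDKN2C was also above the controls in all cultures, at 6126 ± 1435 against 3339 ± 842 FPKM, with a log2 difference of 0.88 ± 0.39 (limma adjusted p = 0.156). The other 3 genes overlapped with the controls. Their log2 differences were 0.36 ± 0.23 for CDKN1A (95% interval -0.18 to 0.90, limma adjusted p = 0.299), 0.08 ± 0.18 for CDKN2B (-0.33 to 0.50, adjusted p = 0.746) and 0.17 ± 0.24 for CDKN2D (-0.41 to 0.74, adjusted p = 0.628). Each of these 3 intervals excluded a 2-fold change. With libraries scaled to a common sum, CDKN1A had a log2 difference of 0.74 and an adjusted p of 0.0127, still within 2-fold. A split with every 10 µM culture above every control occurred in 14.4% of all tested genes, and the opposite split in 26.7%.

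Because the bulk of each library shifted with the concentration, the genes were also set against each other within a library, where scaling has no effect. CDKN1B was used as the denominator, a choice made after its values had been seen. The FPKM ratio of CDKN1A to CDKN1B was 0.765, 0.797 and 0.861 in control cells, 2.68, 2.18 and 2.97 at 5 µM, and 1.61, 2.3 and 2.28 at 10 µM. CDKN1A went from below CDKN1B to above it in all treated libraries. The ratio of CDKN2B to CDKN1B was 0.825 to 0.915, 1.58 to 2.14 and 1.68 to 1.86 in the same order of groups, and that of CDKN1C was 0.0858 to 0.111, 0.374 to 0.507 and 0.288 to 0.336. For all 5 genes the ratio was higher than every control at both concentrations, with exact permutation p = 0.1, the smallest possible. Among the log2 differences of all tested genes against the vehicle, CDKN1B stood at the 38.7 percentile at 5 µM. At 10 µM it stood at the 9.38 percentile, so most genes rose relative to it there. The splits thus follow in part from the choice of denominator, and their share over all genes was not computed. From 5 µM to 10 µM the ratios overlapped except that of CDKN1C, which was lower by 0.54 on the log2 scale with no overlap. The ratios alone show unequal change between genes and do not say which of the pair moved. At 10 µM against the vehicle the log2 difference of CDKN1B itself was -0.98. It was 0.36 for CDKN1A, 0.67 for CDKN1C, 0.08 for CDKN2B, 0.88 for CDKN2C and 0.17 for CDKN2D.

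**Figure D3:**
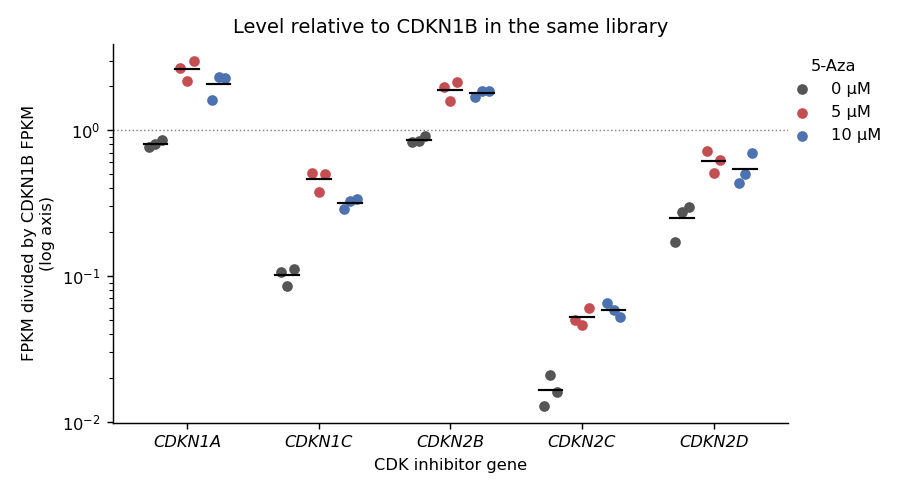
FPKM of 5 CDK inhibitor genes divided by that of CDKN1B in the same library (vertical log axis), by 5-Aza concentration in colour. Points are single cultures and lines are group means. The ratios at 5 µM and 10 µM lay above those of the control cultures for each gene, for CDKN1A at 2.18 to 2.97 and 1.61 to 2.3 against 0.765 to 0.861.

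The position of each gene was taken from the GRCh37 annotation, the genome version of the deposited data. CDKN1A lies on chromosome 6 (36644237 to 36655114, plus strand), CDKN1B on chromosome 12 (12838432 to 12875303, plus strand) and CDKN1C on chromosome 11 (2904443 to 2907005, minus strand). CDKN2B lies on chromosome 9 (22002902 to 22009304, minus strand), CDKN2C on chromosome 1 (51426417 to 51440306, plus strand) and CDKN2D on chromosome 19 (10677136 to 10679735, minus strand). The 5 genes that were called at 5 µM therefore lie on 5 different chromosomes. CDKN1C and CDKN2B have well-known neighbours, and 5 of these were examined. In limma 0 were called higher in any comparison, and 1 was called lower, at 5 µM. Of all tested genes 14.1% were called higher and 2.17% lower at 5 µM. At an unadjusted p below 0.05, 1 neighbour was higher and 2 were lower there. Over all 20051 genes of that comparison, the limma p at rank 3654 was 0.001. KCNQ1, the potassium channel gene of the imprinted domain that holds CDKN1C, fell at 5 µM, with a log2 difference of -1.09 ± 0.10 (limma adjusted p = 0.000679), although it was no longer called when libraries were scaled to a common sum, while CDKN1C beside it rose. KCNQ1OT1, the non-coding RNA of that domain, had a log2 difference of 0.72 (adjusted p = 0.00535), within 2-fold, and was called higher at 1.01 with libraries scaled to a common sum. From 5 µM to 10 µM 0 of the 5 neighbours were called, beside 0.129% of all tested genes called higher and 4.82% called lower. At an unadjusted p below 0.05, 1 was lower, and the largest log2 difference was that of PHLDA2, at -0.51 (limma adjusted p = 0.297). Against the vehicle 0 were called at 10 µM, beside 4.07% of all tested genes called higher and 3.40% called lower. At an unadjusted p below 0.05, 2 were lower, with KCNQ1 at -0.67 (limma adjusted p = 0.0464). CDKN2B-AS1, the antisense RNA next to CDKN2B, had a log2 difference of 0.36 ± 0.17 (adjusted p = 0.144) at 5 µM. The library kit is not described as stranded, so reads of CDKN2B and of an antisense transcript cannot be told apart where they overlap.

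The 13 CDKs and cyclins that the inhibitors bind were examined next. At 5 µM 2 were called higher and 0 lower, with a list median of 0.36 on the log2 scale, beside 14.1% of all tested genes called higher, 2.17% called lower and a median of 0.14 over all genes. Both were E-type cyclins, the partners of CDK2 at the start of replication. CCNE1 went from 13381 ± 1310 to 53686 ± 4880 FPKM (n = 3 each), a log2 difference of 2.01 (limma adjusted p = 0.000266), and CCNE2 had a log2 difference of 2.25 (adjusted p = 0.00169). With either of the other scalings CDK1 was called higher too. From 5 µM to 10 µM 4 were called lower and 0 higher, beside 4.82% and 0.129% of all tested genes, and all 4 act late in the cycle. The log2 difference was -2.05 for CCNB2 (limma adjusted p = 0.00197), -1.56 for CCNB1 (0.0112), -1.61 for CCNA2 (0.0114) and -1.21 for CDK1 (0.023), the last of which lost its call with median-of-ratios scaling. Between 10 µM and the vehicle 12 could be tested, of which 2 were called higher and 4 lower, beside 4.07% and 3.40% of all tested genes. CCNB2 fell by 2.40, CCNB1 by 1.49, CCNA2 by 1.36 and CDK6 by 1.10 (limma adjusted p = 0.0279) on the log2 scale. CCNE1 was higher by 1.33 and CCNE2 by 1.71. CDK1 was not called, with a log2 difference of 0.06 (adjusted p = 0.943). With median-of-ratios scaling CDK6 was no longer called (-0.86). With libraries scaled to a common sum 2 were called lower, and CCNA2 was no longer among them.

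Among 13 genes of the RB family and the E2F factors, the part of the cycle control that the inhibitors act on, 5 were called higher and 0 lower at 5 µM, beside 14.1% and 2.17% of all tested genes. The list median of 0.12 was close to the 0.14 over all genes. E2F7 had a log2 difference of 2.06 (limma adjusted p = 0.000662), E2F1 of 1.74 (0.000685), RBL1 of 2.13 (0.00406) and E2F2 of 2.06 (0.0203). None was called from 5 µM to 10 µM in limma, beside 4.82% of all tested genes called lower and 0.129% called higher. At an unadjusted p below 0.05, 3 were lower and 0 higher. Over all 20085 genes of this comparison, the limma p at rank 4557 was 0.0423. The largest log2 difference was that of E2F7, at -1.11 (adjusted p = 0.0627). Against the vehicle, E2F1 (2.08, adjusted p = 0.00327) and RBL1 (2.20, 0.0176) were called higher at 10 µM and 0 lower. Of all tested genes 4.07% were called higher and 3.40% lower. With libraries scaled to a common sum 4 of the list were called higher, and 1362 over all genes.

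The 22 known regulators of the inhibitors included factors that act on their promoters and proteins that degrade them. At 5 µM 1 was called higher and 1 lower, beside 14.1% and 2.17% of all tested genes, and the list median was -0.14 against 0.14 over all genes. DTL, part of the ubiquitin ligase that degrades p21, had a log2 difference of 1.75 (limma adjusted p = 0.00176). MYC, known to repress CDKN1A and CDKN2B, went from 991358 ± 112000 to 357311 ± 23600 FPKM, a log2 difference of -1.47 (adjusted p = 0.000297). At 10 µM MYC measured 596545 ± 128000 FPKM and was not called against either group. Its log2 difference was 0.72 against 5 µM (adjusted p = 0.0593) and -0.75 against the vehicle. The latter passed the adjusted p (limma, 0.0406), as did 9.71% of all tested genes in the lower direction, and stayed within 2-fold. SP1, the factor that binds the GC box, was called in none of the 3 comparisons. Its log2 difference was -0.63 at 5 µM against the vehicle (limma adjusted p = 0.000669), -0.13 from 5 µM to 10 µM (0.615) and -0.75 at 10 µM against the vehicle (0.0246). None of the 22 was called from 5 µM to 10 µM in limma, beside 4.82% of all tested genes called lower and 0.129% called higher. At an unadjusted p below 0.05, 4 were lower and 1 higher. Over all 20085 genes of this comparison, the limma p at rank 4557 was 0.0423. Against the vehicle DTL was called higher at 10 µM (1.67, adjusted p = 0.022), beside 4.07% of all tested genes. BMI1, a Polycomb repressor, was called lower (-1.49, adjusted p = 0.0161), beside 3.40% of all tested genes.

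CDKN1A is a gene of the DNA damage response, and 26 other genes known from the response to DNA damage and stress were examined. At 5 µM 3 were called higher and 2 lower, beside 14.1% and 2.17% of all tested genes, and the list median was 0.05 against 0.14 over all genes. The largest rise in the list was that of a gene not named here, with a log2 difference of 2.58 (limma adjusted p = 0.000129), above the 1.61 of CDKN1A. FAS, a death receptor gene named after its values were seen, had a log2 difference of 1.58 (adjusted p = 0.0275), and SFN, which encodes the 14-3-3 sigma protein, of 1.01 (0.00352). BBC3 fell to 0.499 of the control level (adjusted p = 0.000285) and SESN2 to 0.49 (0.000498), and both lost their calls with either of the other scalings. MDM2, a ubiquitin ligase gene of this response, had log2 differences of 0.07, -0.53 and -0.46 in the 3 comparisons and was called in none. From 5 µM to 10 µM 0 were called higher and 2 lower, beside 0.129% and 4.82% of all tested genes. The lower genes were the same unnamed gene (-1.24, limma adjusted p = 0.00724) and PPM1D (-1.01, 0.0463). Neither was called with median-of-ratios scaling, and with libraries scaled to a common sum the unnamed gene was called (-1.14, adjusted p = 0.0209) and PPM1D was not. Against the vehicle that unnamed gene alone was called higher at 10 µM (1.34, limma adjusted p = 0.013), beside 4.07% of all tested genes. CCNG1 (-1.30, limma adjusted p = 0.0108) and ZMAT3 (-1.06, 0.0219) were called lower, beside 3.40% of all tested genes. Neither CCNG1 nor ZMAT3 was called with libraries scaled to a common sum, nor was ZMAT3 with median-of-ratios scaling.

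Of 11 replication and proliferation genes, 2 were called higher and 0 lower at 5 µM, RRM2 (1.17, limma adjusted p = 0.0124) and MCM2 (1.02, 0.00912), beside 14.1% and 2.17% of all tested genes. With libraries scaled to a common sum 6 were called higher, and 3582 of all 20051 genes. From 5 µM to 10 µM TOP2A (-1.61, adjusted p = 0.00513) and MKI67 (-1.43, 0.0136), markers of cells in division, were called lower. None was called higher, beside 4.82% of all tested genes called lower and 0.129% called higher. The list median was 0.24, against -0.31 over all genes. TYMS was higher at the adjusted p alone (0.64, limma adjusted p = 0.0332), within 2-fold. Against the vehicle 4 were called higher and 1 lower at 10 µM, beside 4.07% and 3.40% of all tested genes. TYMS (1.38, adjusted p = 0.00497), MCM5 (1.40, 0.0123) and MCM4 (1.13, 0.0192) are replication genes, and MKI67 (-1.47, 0.0207) was the lower gene.

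**Figure D4:**
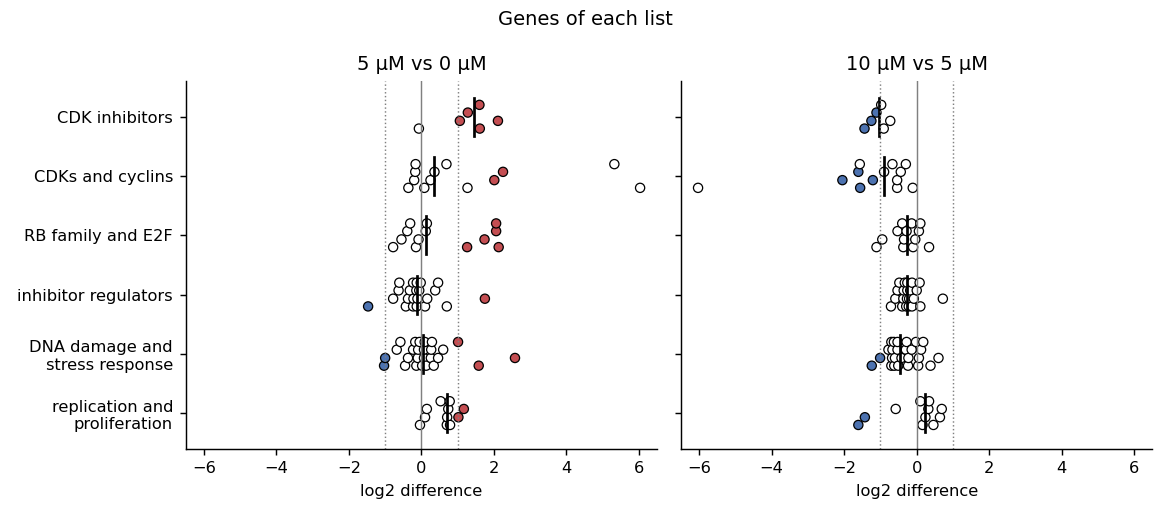
Log2 difference (horizontal axis, log2 of FPKM + 1) of each gene in the CDK inhibitor set and in 5 lists, for 5 µM against 0 µM and 10 µM against 5 µM. Filled points were called (limma adjusted p at most 0.05 and a log2 difference beyond 1, the dotted lines) and black bars are list medians. The inhibitors had medians of 1.44 and -1.04, the DNA damage and stress response genes of 0.05 and -0.47.

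The genes whose levels over the 9 libraries ran closest to each inhibitor were found by the root-mean-square distance between log2 profiles centred on their means, over 15272 genes above 0 in all libraries. The distances are descriptions, and the libraries share their groups. Closest to CDKN1A were FOSB (0.11), MICB (0.12) and BGN (0.15), against a spread of the CDKN1A profile itself of 0.73. CDKN2B lay closest to CD55 (0.06), SWAP70 (0.08) and GALNT5 (0.09), CDKN1C to C6orf223 (0.15), KRT23 (0.17) and CD68 (0.18), and CDKN1B to TMED5 (0.09), SSR3 (0.09) and SAP30L (0.10). CDKN2C lay closest to MAP2 (0.13), PLBD1 (0.17) and C17orf103 (0.17), and CDKN2D to FHAD1 (0.16), ELF5 (0.17) and LCA5 (0.18). Within the family, CDKN1A was at a distance of 0.25 from CDKN1C and from CDKN2B and of 0.26 from CDKN2D, while CDKN1B was at 0.53 to 0.94 from the other 5.

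The libraries held an estimated 1.59e+07 to 2.97e+07 fragments in the control group, 2.79e+07 to 3.26e+07 at 5 µM and 1.19e+07 to 2.59e+07 at 10 µM, over 17882 genes with an annotated length. Estimated fragments behind the inhibitors ran from 349 upward for CDKN1A, CDKN1B and CDKN2B, and from 48.5 upward for CDKN1C and CDKN2D, with only CDKN2C lower. Of 11 colon epithelial markers all were above 0 in every library, and their summed FPKM was 9.02642e+07 to 1.08558e+08 in control cells, 3.7692e+07 to 4.23505e+07 at 5 µM and 2.96138e+07 to 5.20751e+07 at 10 µM. Of 7 markers of other cell types 5 were called higher at 5 µM, beside 14.1% of all tested genes. Their summed FPKM, in the same order of groups, was 4936 to 9138, 32267 to 45146 and 18012 to 24317 for the fibroblast markers. It was 1901 to 5031, 9506 to 12253 and 3267 to 3534 for the endothelial markers, and 0 to 154, 868 to 1895 and 0 to 635 for the leukocyte markers. CD3E was listed at 0 in all control libraries and COL1A2 in all libraries at 10 µM. The sums for the other cell types were highest at 5 µM, as were the inhibitors called there. The epithelial sum was instead below that of control cells at both concentrations, and its markers did not move together. At 5 µM 2 of the 11 were called higher (CDX1 and CEACAM5) and 3 lower (KRT8, KRT18 and KRT19), beside 14.1% and 2.17% of all tested genes. The part of these marker levels in the inhibitor differences was not tested.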

How the data were processed

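RNA was measured in 9 HT-29 cultures by paired-end RNA-Seq. The deposited files hold FPKM values per gene, which the authors obtained with Cufflinks from reads that had passed FASTX-Toolkit filters and been placed on the hg19 genome by TopHat at its default settings. An exact 0 in such tables can be a failed estimate.

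Values of repeated symbols (543 of 23284) were summed. Groups came from the sample labels. Each comparison was fitted on its 6 libraries with limma 3.58.1 in R 4.3.3 (lmFit, eBayes with a trend) on log2(FPKM + 1). The added 1 was small beside these FPKM values, so genes near 0 could show very large log2 differences. CD3E, at 0 in control cells and a mean of 804 FPKM at 5 µM, had 9.65. Genes were tested that reached 10 FPKM in at least 1 of the 6 libraries. This limit was low, so genes with very few fragments were tested. CDKN2C at 2848 FPKM in control replicate 1 stood for an estimated 2.95 fragments on its 995 nt transcript. P-values were adjusted by Benjamini-Hochberg over all tested genes. The count test was not used because the values are not counts. The script was tested on simulated data. Fragments were estimated from the FPKM steps of 12 miRNA genes of 110 nt (46 values above 0, 100% whole within 0.01) and the annotated transcript lengths. The relation to length was fitted to 1222 other genes, and 815 of these same genes lay within 15% of it. The estimates cover counting error only, and the FPKM scale itself is unexplained.

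The 6 inhibitor genes and all gene lists were chosen with earlier results of these data known. Named list genes were up to 4 called genes with the smallest adjusted p per list and comparison, or the gene with the largest absolute log2 difference where none was called. Some items are not reported here, and 1 gene that the rule names is given by its values alone. Nearest profiles were the 3 closest genes. Alternatives covered the pseudocount, filters, fold threshold, scaling, repeated symbols, all 9 samples in 1 fit, the replicate number and each culture left out. Python 3.11.15, pandas 2.3.3, numpy 2.4.6, scipy 1.17.1 and matplotlib 3.10.9 were used.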

Additional observations from a re-analysis of the deposited data

How the results depend on the processing

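Each count of called inhibitors and each log2 difference was recomputed under 18 other settings per comparison, among them a minimum of 10 estimated fragments, which was chosen after seeing the data and changed no call of an inhibitor. Of the log2 differences, 293 kept their direction and side of the threshold, 19 lost a call, 8 gained one and 4 turned sign.

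From 0 µM to 5 µM, testing against a fold of 2 (limma treat) left 2 genes called higher, CDKN1A and CDKN1C, and 1463 higher and 70 lower over all genes. Leaving out each culture in turn gave 4 to 5. CDKN1B turned sign when libraries were scaled to a common sum (0.22) and ranged from -0.20 to 0.03 with a culture left out. From 5 µM to 10 µM, 5 genes were lower with no fold threshold and 0 with treat, where 7 genes rose and 374 fell overall. With a culture left out the count ran from 0 to 5, as low as 0 without 5 µM replicate 1 or 3, 1 without 5 µM replicate 2, and as high as 5 without 10 µM replicate 2. CDKN2D had -0.87 with median-of-ratios scaling and -0.90 without 10 µM replicate 1, and CDKN1A had an adjusted p of 0.0762 without 10 µM replicate 3, each no longer called. From 0 µM to 10 µM, 1 gene was lower with no fold threshold (CDKN1B), 1 was higher with libraries scaled to a common sum (CDKN1C), and 0 to 1 were lower with a culture left out. CDKN2D then ranged from -0.02 to 0.37 and CDKN2B from -0.11 to 0.18. The cause of these changes was not tested, except that a stricter rule calls fewer genes by construction. Leaving out a culture lowered the count in some fits and raised it in others.

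Over all genes, calls from 0 µM to 10 µM were 771 higher and 644 lower (54.5% higher), 1124 and 286 (79.7%) with median-of-ratios scaling, and 1362 and 164 (89.3%) with a common sum. That scaling moved the median of the genes above 0 in all 6 libraries from -0.04 to 0.25, from -0.24 to -0.15 and from -0.23 to 0.14 in the 3 comparisons. The replicate numbers did not pair the cultures, since deviations from group means correlated by -0.07 to 0.09 between cultures of the same number and by -0.16 to 0.10 between others. With the replicate number as a block, 5 inhibitors were called higher at 5 µM, 2 were called lower from 5 µM to 10 µM (CDKN2D at -1.11, adjusted p = 0.0522) and 0 differed from 0 µM to 10 µM, and calls over all genes from 5 µM to 10 µM went from 26 higher and 969 lower to 11 and 407. Depth limits CDKN2C most, with under 7 estimated fragments per control library on its 995 nt transcript.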
